A study of Homo sapiens with 30 samples.

Results

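Glycolysis and hypoxia-induced genes were followed in 5 human cell lines treated with elraglusib (9-ING-41), a small-molecule inhibitor of the serine/threonine kinase GSK-3, or with its vehicle DMSO. The gene set held 41 listed symbols, and a symbol was taken as measured when a probe set of the array carried it as its only symbol. By that rule 39 of the 41 genes were measured, each by 1 probe set, out of 22465 genes named on 67528 probe sets. CA9, a carbonic anhydrase of the cell surface, and SLC16A3, a lactate exporter, were not analysed here. Differences are given on the log2 scale as elraglusib minus DMSO, so that a negative value is a lower signal after treatment.

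The series asked how inhibition of GSK-3 changes gene expression in colorectal cancer lines and in immune cell lines. HCT-116, HT-29 and KM12C are colorectal cancer lines, and NK-92 (natural killer cells) and TALL-104 (leukaemic cytotoxic T cells) are the cytotoxic immune lines. Each line was exposed to 1 µM elraglusib or to DMSO for 24 h on 3 arrays per group, which gave 30 arrays in all. No line was genetically altered for the comparison. Each line is a single established line in the medium used for it (McCoy's for HCT-116 and HT-29, minimal essential medium for KM12C, media with IL-2 for NK-92 and TALL-104). HCT-116 and HT-29 shared a medium, and in every other comparison between lines, line and medium cannot be told apart. The 3 arrays of a group are labelled biological replicates, with no statement on separate cultures, so each p-value below reflects array-to-array spread that may be technical. The signals are set on a fixed amount of RNA, so a smaller share of a transcript and a change in the total RNA per cell cannot be told apart.

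The labelled cell types were checked against their markers on every array. The summed log2 signal of 8 epithelial markers was between 82.61 and 103.53 in the colorectal lines and between 39.74 and 42.94 in NK-92 and TALL-104. That of 8 NK-cell markers was 102.68 to 106.19 in NK-92 and 94.59 to 104.42 in TALL-104, a narrow gap. The 104.42 was on the array labelled DMSO replicate 2. The summed signal of 7 T-cell markers was between 78.4 and 78.8 on 5 TALL-104 arrays and between 49.95 and 51.76 on the NK-92 arrays. Some single markers went against their list. CDX2 was at most 4.35 in HT-29, VIL1 4.47 in HCT-116, KRT20 5.41 in KM12C and CD8B 4.11 in TALL-104. CD3E was 13.22 to 13.51 in NK-92. The array labelled TALL-104 DMSO replicate 2 went against its label. Its T-cell sum was 50.51, and its correlation over the 17407 probe sets with a mean signal over 6 was 0.988 to 0.993 with the 6 NK-92 arrays and 0.859 to 0.871 with the other 5 TALL-104 arrays. It was kept under its label, and the counts of called genes that use it are given with and without it.

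As background, the transcription factor subunits HIF1A and EPAS1 are made in normal oxygen but marked for destruction by the prolyl hydroxylases EGLN1 and EGLN3 together with the ubiquitin ligase component VHL. In low oxygen the subunits persist and bind hypoxia response elements near genes for glucose uptake, glycolysis, mitophagy, collagen hydroxylation and blood vessel growth. EGLN1, EGLN3 and many glycolytic enzymes are themselves targets.

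The core letters of the hypoxia response element, ACGTG or GCGTG on either strand, were searched in RefSeq promoter windows of build GRCh38.p14 that run from 250 bases before to 50 bases after the annotated gene start. Of the 41 genes, 36 had a window, and VEGFA, BNIP3L, SLC2A3, NDRG1 and VHL had no window and were not searched. A core was present in 26 of the 36 windows (72.2%), against 48.4% of all 35114 promoter windows. Each gene of the set was counted by 1 window, while the background held every window. The background was not matched for gene type or base content, so the shares are not a like comparison. ACGTG was found in 15 of the 36 (41.7%, against 21.4% of all) and GCGTG in 17 (47.2%, against 36.5%). The palindrome CACGTG, an E-box bound by other factors, overlaps ACGTG and was found in 5 (13.9%, against 7.26%). The other 10 windows, those of EGLN3, HK1, PFKM, PFKP, TPI1, PGAM1, PDK1, SLC16A3, P4HA2 and MXI1, held no core. A match is a run of letters and not a measured binding site. Of the searched genes that fell in HT-29, PFKL and KDM3A hold 1 core each, and PDK1, P4HA2, EGLN3 and HK1 hold none. Whether a core goes with a fall was not tested. The windows below are those of 4 others that fell in HCT-116 or HT-29 and hold a core. The windows are printed 5′ to 3′ on the gene's strand with the matches in capitals. They lie at chr17:28576846-28577145 (ALDOC, minus strand), chr12:6914330-6914629 (ENO2, plus strand), chr1:231422238-231422537 (EGLN1, minus strand) and chrX:24465036-24465335 (PDK3, plus strand).
ALDOC: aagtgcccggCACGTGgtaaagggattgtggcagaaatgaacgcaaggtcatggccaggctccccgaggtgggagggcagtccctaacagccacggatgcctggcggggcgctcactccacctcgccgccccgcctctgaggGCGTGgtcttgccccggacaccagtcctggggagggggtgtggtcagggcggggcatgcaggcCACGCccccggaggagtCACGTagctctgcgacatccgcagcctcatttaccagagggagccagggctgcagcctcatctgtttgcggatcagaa
ENO2: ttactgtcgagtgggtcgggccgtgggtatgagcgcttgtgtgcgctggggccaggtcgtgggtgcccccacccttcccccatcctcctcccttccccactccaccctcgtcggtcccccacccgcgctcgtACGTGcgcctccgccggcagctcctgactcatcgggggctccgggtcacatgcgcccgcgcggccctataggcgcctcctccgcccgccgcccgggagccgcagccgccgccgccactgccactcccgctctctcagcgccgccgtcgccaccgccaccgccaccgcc
EGLN1: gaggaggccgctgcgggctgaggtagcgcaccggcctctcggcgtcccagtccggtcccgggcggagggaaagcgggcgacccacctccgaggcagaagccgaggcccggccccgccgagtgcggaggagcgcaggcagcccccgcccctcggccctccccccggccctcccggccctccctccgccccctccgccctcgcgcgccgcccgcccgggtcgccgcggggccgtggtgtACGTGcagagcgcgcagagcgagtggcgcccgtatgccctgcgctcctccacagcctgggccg
PDK3: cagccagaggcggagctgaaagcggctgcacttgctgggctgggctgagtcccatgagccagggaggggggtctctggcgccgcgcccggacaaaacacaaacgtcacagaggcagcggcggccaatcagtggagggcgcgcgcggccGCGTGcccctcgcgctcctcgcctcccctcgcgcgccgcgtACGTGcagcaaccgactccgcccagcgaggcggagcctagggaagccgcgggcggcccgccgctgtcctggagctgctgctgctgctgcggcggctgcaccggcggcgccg
The ALDOC window held 5 core matches, 2 of them the strands of a single CACGTG, the PDK3 window held 2, and the ENO2 and EGLN1 windows held 1 each. Counted over both strands, LDHA and BNIP3 had the most matches of the set, with 6 each. These counts hold both strands of 2 CACGTG palindromes in LDHA and of 1 in BNIP3, so there were fewer separate sites. The responses of LDHA and BNIP3 to elraglusib are given below, without a test against genes that hold no core.

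Elraglusib lowered members of the set in the colorectal lines and raised none past the test. With limma and Benjamini-Hochberg adjustment over all 67528 probe sets, 2 of the 39 genes fell in HCT-116 (ALDOC and ENO2), 11 fell in HT-29 (BNIP3L, ALDOC, VEGFA, PDK3, P4HA2, PDK1, EGLN1, PFKL, EGLN3, HK1 and KDM3A) and 1 fell in KM12C (VEGFA). The threshold was an adjusted p of 0.05, which 0.817% of all probe sets passed upward and 0.336% downward in HCT-116. In HT-29 the shares were 4.62% upward and 3.39% downward, and in KM12C 0.603% upward and 0.894% downward. The median difference of the 39 genes was -0.15 in HCT-116, against 0.02 over all probe sets. In HT-29 it was -0.22 against 0, and in KM12C 0.03 against 0.11. At an unadjusted p of 0.05, 1 gene was higher and 18 were lower in HCT-116, 0 and 18 in HT-29, and 6 and 6 in KM12C, where 12.8%, 18.5% and 17.5% of all probe sets were past it in either direction.

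No gene passed in NK-92 or TALL-104, where the share of all probe sets called was 0% in both, and 0% again in TALL-104 without the array that went against its label. At an unadjusted p of 0.05 the count of the 39 genes was also 0 in each of these comparisons. The smallest adjusted p of the 39 was 1.00 in NK-92 and 0.823 in TALL-104 by limma.

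**Figure D1:**
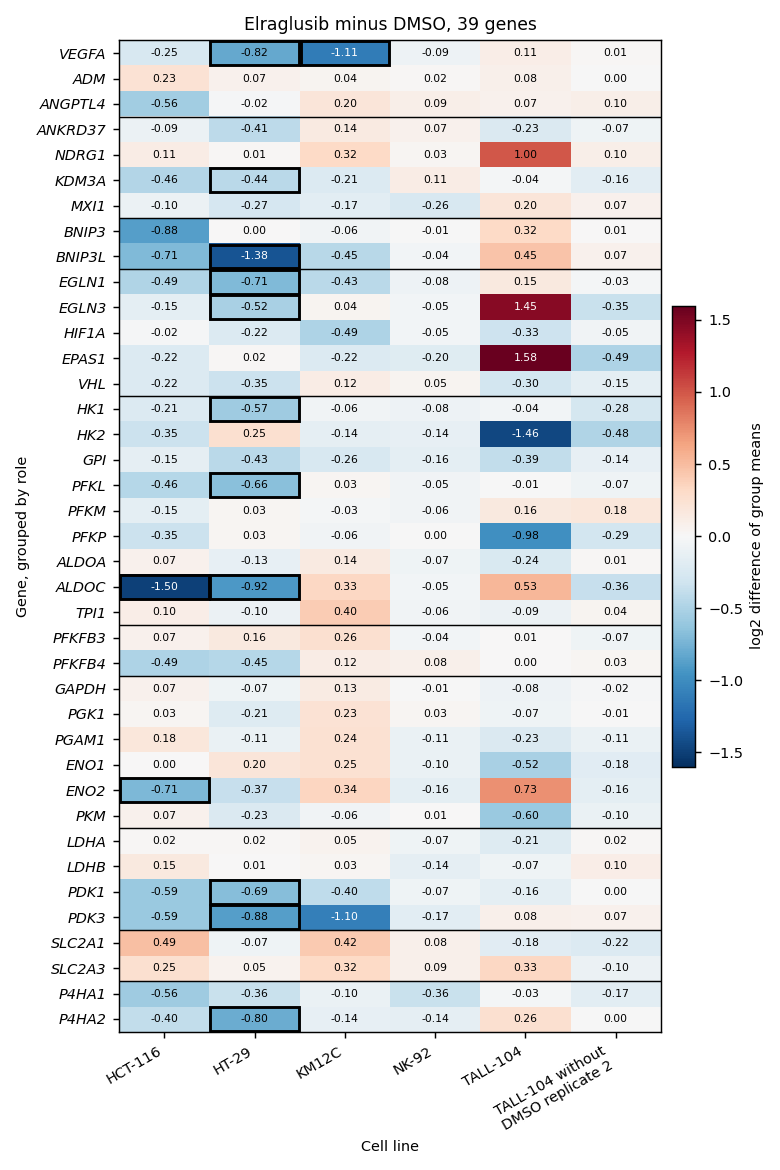
Log2 difference of group means (elraglusib minus DMSO, 3 arrays each) for the 39 measured genes (rows, grouped by role) in 5 cell lines and in TALL-104 without DMSO replicate 2 (columns). Boxed cells passed an adjusted p of 0.05 by limma: 2 in HCT-116, 11 in HT-29 and 1 in KM12C, all lower after treatment, while the strong colours in the TALL-104 column fade once the array is left out.

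The direction could also be read from the arrays themselves. All 3 treated arrays lay below all 3 DMSO arrays for 20 of the 39 genes in HCT-116 (6.73% of all probe sets did so), 19 in HT-29 (9.87%) and 9 in KM12C (7.33%). All treated arrays lay above for 7 genes in HCT-116 (10.5% of all probe sets), 2 in HT-29 (11.9%) and 13 in KM12C (14.5%). In NK-92 the counts were 6 below (3.28%) and 2 above (4.7%). In TALL-104 they were 4 below (3.82%) and 2 above (8.1%), and without the array labelled DMSO replicate 2 they were 9 below (7.66%) and 2 above (12.8%). VEGFA, BNIP3L, EGLN1, GPI, PDK1, PDK3 and KDM3A were below on every treated array in all 3 colorectal lines, which is 7 of 39 against 0.931% of all probe sets and 3.3% of those with a mean signal over 6. No member lay above in all 3, against 0.991% of all probe sets.

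Among the secreted factors, VEGFA, the main growth factor of blood vessels, fell in 2 of the 3 colorectal lines. In KM12C its log2 signal was 8.72, 8.60 and 8.27 on the DMSO arrays and 7.43, 7.43 and 7.39 on the treated arrays. Every treated array lay far below the lowest control. The difference was -1.11 ± 0.14 (SE, n = 3 and 3, limma adjusted p = 0.0104), a 2.16-fold lower signal. In HT-29 the DMSO arrays read 7.81, 7.88 and 7.72 and the treated arrays 6.94, 6.87 and 7.13. The groups again stood apart, and the difference was -0.82 ± 0.12 (SE, limma adjusted p = 0.00328). In HCT-116 the signal was 7.72, 7.60 and 7.64 against 7.34, 7.37 and 7.49 after treatment. These groups did not overlap either, but the difference of -0.25 ± 0.09 (SE) did not pass (limma adjusted p = 0.290).

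VEGFA passed in neither cytotoxic line. NK-92 read 6.18, 6.14 and 6.37 on DMSO and 6.10, 6.03 and 6.30 on elraglusib, and TALL-104 read 6.47, 6.09 and 6.28 on DMSO and 6.43, 6.48 and 6.26 on elraglusib. The groups overlapped in both, with differences of -0.09 ± 0.12 and 0.11 ± 0.14 (SE), and the second was 0.01 ± 0.13 without the array labelled DMSO replicate 2. The other secreted factors did not pass in any line. ADM (adrenomedullin, a vasodilator peptide) differed by 0.02 to 0.23 (-0.00167 in TALL-104 without that array). ANGPTL4, an inhibitor of lipoprotein lipase, was lower on all treated arrays of HCT-116 (-0.56 ± 0.16, SE, limma adjusted p = 0.179). Its signal was low, between 4.08 and 5.74 over all arrays.

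Of the mitophagy receptors, BNIP3L fell in HT-29 with the smallest adjusted p of the set. BNIP3L, a receptor on mitochondria that marks them for autophagy, read 11.86, 11.88 and 12.11 on the HT-29 DMSO arrays and 10.45, 10.55 and 10.71 on the treated arrays. The groups were more than 1 log2 unit apart, with a difference of -1.38 ± 0.13 (SE, n = 3 and 3, limma adjusted p = 0.000296) and a 2.60-fold lower signal. In HCT-116 the arrays read 11.93, 12.45 and 12.41 against 11.62, 11.52 and 11.53, and in KM12C 11.48, 11.33 and 11.25 against 10.90, 10.90 and 10.92. All treated arrays were the lower ones in both lines, but the differences of -0.71 ± 0.15 and -0.45 ± 0.11 (SE) missed the threshold (limma adjusted p = 0.0814 and 0.0973). Its relative BNIP3, whose promoter held 6 core matches, differed by -0.88 ± 0.20 (SE) in HCT-116 (limma adjusted p = 0.100) and by 0 in HT-29. BNIP3 was close to the low end of the array in HT-29 and KM12C, where no array exceeded 5.30.

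The oxygen sensors EGLN1 and EGLN3 fell in HT-29, and the HIF subunits passed in no line. EGLN1, the main HIF prolyl hydroxylase, read 10.56, 10.50 and 10.66 on DMSO and 9.75, 9.81 and 10.04 on elraglusib in HT-29, without overlap. It fell by 0.71 (SE 0.12, limma adjusted p = 0.00832), and the values in HCT-116 and KM12C were -0.49 ± 0.10 and -0.43 ± 0.14 (SE, limma adjusted p = 0.0699 and 0.159). EGLN3, an inducible hydroxylase of the same family, fell in HT-29 by 0.52 (SE 0.12, limma adjusted p = 0.0302) from a lower signal, 6.11, 5.89 and 5.82 against 5.45, 5.43 and 5.37. Its treated values were close to the low end of the array. HIF1A read 14.43, 14.49 and 14.21 on DMSO and 13.91, 13.87 and 13.87 on elraglusib in KM12C. Those groups did not overlap, yet the difference of -0.49 ± 0.12 (SE) did not pass (limma adjusted p = 0.0858). In the other lines HIF1A differed by -0.02 ± 0.09 (HCT-116), -0.22 ± 0.14 (HT-29), -0.05 ± 0.11 (NK-92) and -0.33 ± 0.25 (TALL-104, -0.05 ± 0.13 without the array), all with overlapping groups.

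EPAS1, which encodes HIF-2α, differed by -0.22 ± 0.09 (SE) in HCT-116, 0.02 ± 0.13 in HT-29, -0.22 ± 0.18 in KM12C and -0.20 ± 0.12 in NK-92, and none passed. In TALL-104 the value turned with 1 array. The DMSO arrays read 11.00, 4.68 and 10.77 and the treated arrays 10.55, 9.85 and 10.78, so that the difference was 1.58 ± 1.68 (SE) with the array labelled DMSO replicate 2 and -0.49 ± 0.28 without it. VHL was lower on all treated arrays of HCT-116 (-0.22 ± 0.09, SE) and HT-29 (-0.35 ± 0.12) and higher on all of KM12C (0.12 ± 0.11). Its values in NK-92 and TALL-104 were 0.05 ± 0.12 and -0.30 ± 0.17 (-0.15 ± 0.14 without the array), and no line passed.

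**Figure D2:**
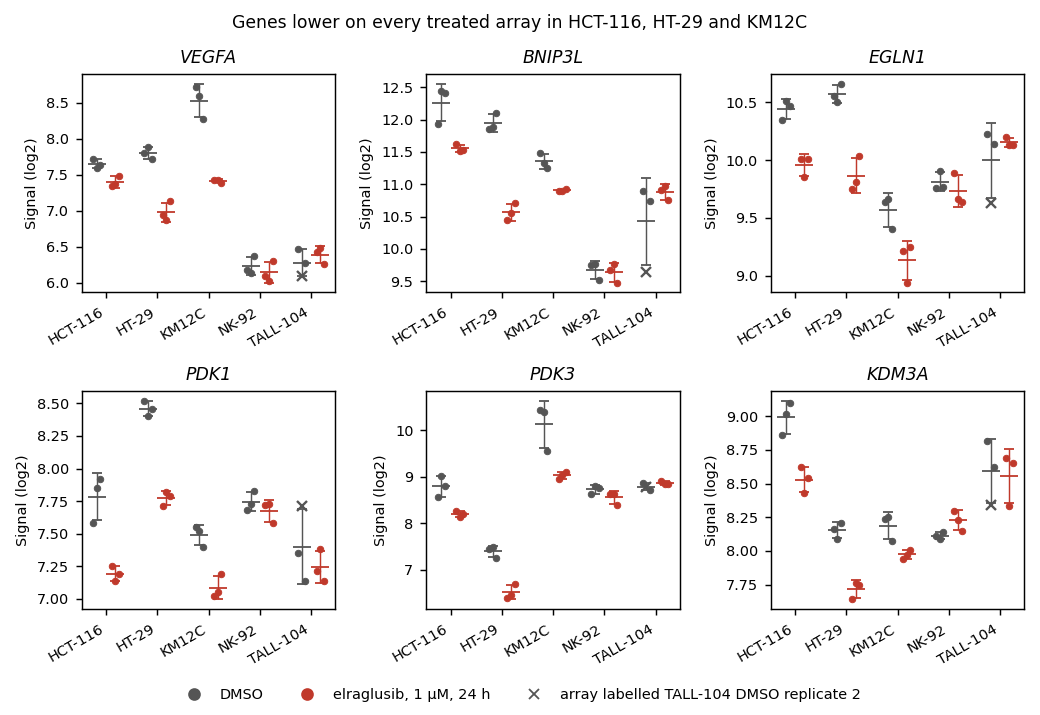
Log2 signal (vertical axis) of VEGFA, BNIP3L, EGLN1, PDK1, PDK3 and KDM3A in 5 cell lines (horizontal axis). Points are arrays, horizontal bars with whiskers the mean and SD of 3 arrays, and the cross marks the array labelled TALL-104 DMSO replicate 2. In HCT-116, HT-29 and KM12C every elraglusib point lies below every DMSO point.

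The pyruvate dehydrogenase kinases PDK1 and PDK3 fell in HT-29. They phosphorylate and switch off pyruvate dehydrogenase, which feeds pyruvate into the tricarboxylic acid cycle. PDK1 read 8.52, 8.40 and 8.46 on the HT-29 DMSO arrays and 7.71, 7.82 and 7.79 on the treated arrays. All treated arrays were below, and the gene fell by 0.69 (SE 0.11, limma adjusted p = 0.00488). In HCT-116 (7.58, 7.85 and 7.92 against 7.25, 7.14 and 7.19) and KM12C (7.55, 7.52 and 7.40 against 7.02, 7.05 and 7.19) the groups did not overlap. The differences of -0.59 ± 0.11 and -0.40 ± 0.11 (SE) did not pass (limma adjusted p = 0.0638 and 0.127). PDK1 in NK-92 and TALL-104 differed by -0.07 ± 0.10 and -0.16 ± 0.17 (SE), with overlap, and the second was -0.00167 ± 0.14 without the array labelled DMSO replicate 2.

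PDK3 read 7.45, 7.49 and 7.26 in HT-29 on DMSO and 6.40, 6.47 and 6.70 on elraglusib. The groups were well apart and PDK3 fell by 0.88 (SE 0.13, limma adjusted p = 0.00353), a 1.84-fold lower signal. In KM12C the mean moved further, from 10.44, 10.40 and 9.55 to 8.95, 9.04 and 9.10. DMSO replicate 3 lay well below the other controls there, and the difference of -1.10 ± 0.23 (SE) did not pass (limma adjusted p = 0.0585). In HCT-116 it was -0.59 ± 0.13 (SE, limma adjusted p = 0.0871). The lactate dehydrogenase subunits at the same branch point passed in no line. LDHA, with 6 core matches in its promoter, differed by 0.02, 0.02 and 0.05 in HCT-116, HT-29 and KM12C (SE 0.09 to 0.11), and LDHB by 0.15, 0.01 and 0.03.

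Among the enzymes of upper glycolysis, ALDOC fell in HCT-116 and HT-29. ALDOC is the brain-type aldolase that splits fructose bisphosphate. In HCT-116 it read 8.10, 8.43 and 8.65 on DMSO and 7.22, 6.70 and 6.77 on elraglusib. No treated array came near the controls, and the difference of -1.50 ± 0.19 (SE, n = 3 and 3, limma adjusted p = 0.0192), 2.82-fold lower, was the greatest of any member in a colorectal line. In HT-29 the signal went from 6.47, 6.10 and 6.22 to 5.32, 5.29 and 5.43, a fall of 0.92 (SE 0.13, limma adjusted p = 0.00288). These treated values were close to the low end of the array. KM12C ran the other way without passing: 5.67, 5.63 and 5.71 on DMSO and 5.90, 6.09 and 6.02 on elraglusib. All 3 treated arrays were the higher ones, with a difference of 0.33 ± 0.11 (SE, limma adjusted p = 0.181). The muscle-type aldolase ALDOA differed by 0.07, -0.13 and 0.14 in HCT-116, HT-29 and KM12C, and none passed.

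PFKL, the liver-type subunit of phosphofructokinase, read 8.83, 8.63 and 8.45 in HT-29 on DMSO and 8.12, 8.04 and 7.76 on elraglusib. Replicate 3 was the lowest of its group in both arms, the groups did not overlap, and PFKL fell by 0.66 (SE 0.15, limma adjusted p = 0.0261). In HCT-116 the value was -0.46 ± 0.08 (SE, limma adjusted p = 0.056) without overlap. In KM12C it was 0.03 ± 0.11. The muscle and platelet subunits PFKM and PFKP differed by 0.03 each in HT-29. HK1, the housekeeping hexokinase, fell by 0.57 in HT-29 (SE 0.13, limma adjusted p = 0.0328), while HK2, the inducible hexokinase, was higher there on all treated arrays without passing (0.25 ± 0.13, SE). GPI, the isomerase that follows hexokinase, was below on every treated array of the 3 colorectal lines, at -0.15 ± 0.08, -0.43 ± 0.14 and -0.26 ± 0.12 (SE), and passed in none.

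In lower glycolysis ENO2 passed in HCT-116 and no other gene passed in any line. ENO2, the neuronal enolase, read 8.66, 8.76 and 8.86 in HCT-116 on DMSO and 8.07, 8.01 and 8.06 on elraglusib. The treated arrays were tightly grouped below the controls, and ENO2 fell by 0.71 (SE 0.09, limma adjusted p = 0.0218), a 1.64-fold lower signal. In HT-29 it read 8.14, 7.92 and 7.90 against 7.77, 7.64 and 7.43 (-0.37 ± 0.13, SE, limma adjusted p = 0.156), and in KM12C 7.99, 7.80 and 7.88 against 8.16, 8.13 and 8.40 (0.34 ± 0.12, limma adjusted p = 0.217). Treated and control arrays did not overlap in either line, and the sign in KM12C was opposite, as for ALDOC. ENO2 differed by -0.16 ± 0.19 (SE) in NK-92 and by 0.73 ± 0.72 in TALL-104, where it was -0.16 ± 0.15 without the array labelled DMSO replicate 2.

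The other lower glycolysis enzymes did not pass. GAPDH differed by 0.07 ± 0.09, -0.07 ± 0.11 and 0.13 ± 0.11 (SE) in HCT-116, HT-29 and KM12C, PGK1 by 0.03, -0.21 and 0.23, and ENO1, the ubiquitous enolase, by 0, 0.20 and 0.25. PKM, the last enzyme of the pathway, differed by 0.07, -0.23 and -0.06. In KM12C 5 of the 6 lower glycolysis genes were higher on all treated arrays (14.5% of all probe sets were), and none passed. TPI1, the triose phosphate isomerase of upper glycolysis, was also higher without passing (0.40 ± 0.11, SE, limma adjusted p = 0.108). The median of all probe sets was also above 0 in KM12C by 0.11, and quantile scaling moved that median by -0.10. TPI1, ALDOC and ENO2 then kept a positive difference, and ADM, EGLN3, HK1, PFKM and PFKP changed sign. Of the 5 lower glycolysis genes, GAPDH was then at 0.006, ENO1 at 0.14, PGK1 at 0.23, PGAM1 at 0.27 and ENO2 at 0.40. In HCT-116 the same scaling moved the signs of GAPDH, PGK1, ENO1, PKM and LDHA below 0.

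The glucose transporters were higher on the treated arrays of HCT-116 and KM12C without passing. SLC2A1, the basal glucose transporter GLUT1, read 12.71, 12.91 and 13.00 in HCT-116 on DMSO and 13.40, 13.36 and 13.32 on elraglusib, and 13.62, 13.49 and 13.47 against 13.88, 13.90 and 14.07 in KM12C. The treated arrays were all higher in both, with differences of 0.49 ± 0.10 and 0.42 ± 0.12 (SE), neither past the test (limma adjusted p = 0.0852 and 0.118). In HT-29 the difference was -0.07 ± 0.17. SLC2A3, the high-affinity transporter GLUT3, was likewise above on all treated arrays of HCT-116 and KM12C (0.25 ± 0.11 and 0.32 ± 0.12, SE) and did not pass. In KM12C no array of SLC2A3 exceeded 5.43, close to the low end of the array, and its difference was 0.21 with quantile scaling. Of the bifunctional enzymes that set fructose 2,6-bisphosphate, PFKFB4 was below on all treated arrays of HCT-116 and HT-29 (-0.49 ± 0.12 and -0.45 ± 0.12, SE, limma adjusted p = 0.112 and 0.0547) and 0.12 ± 0.11 in KM12C. PFKFB3 differed by 0.07, 0.16 and 0.26 in the same lines. The signal of PFKFB4 was low, between 5.05 and 6.34 over all arrays.

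**Figure D3:**
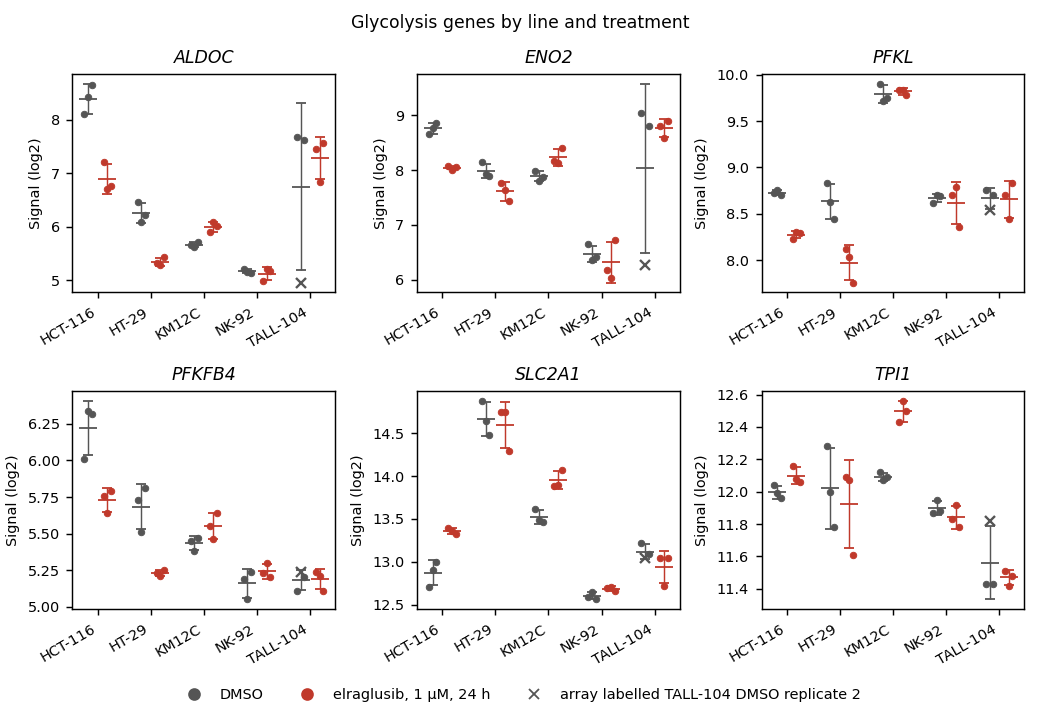
Log2 signal (vertical axis) of ALDOC, ENO2, PFKL, PFKFB4, SLC2A1 and TPI1 in 5 cell lines (horizontal axis). Points are arrays, horizontal bars with whiskers the mean and SD of 3 arrays, and the cross marks the array labelled TALL-104 DMSO replicate 2. ALDOC and ENO2 lie lower after elraglusib in HCT-116 and HT-29 and higher in KM12C.

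Of the collagen prolyl hydroxylases, P4HA2 fell in HT-29. It read 7.47, 7.37 and 7.23 on the HT-29 DMSO arrays and 6.48, 6.52 and 6.67 on the treated arrays, well apart, and fell by 0.80 (SE 0.12, limma adjusted p = 0.00384). In HCT-116 it was -0.40 ± 0.10 (SE) and in KM12C -0.14 ± 0.12. P4HA1 was below on all treated arrays of HCT-116 (-0.56 ± 0.12, SE, limma adjusted p = 0.0934) and HT-29 (-0.36 ± 0.14, limma adjusted p = 0.188) without passing. Among the other targets, KDM3A, a histone H3 lysine demethylase, fell by 0.44 in HT-29 (SE 0.11, limma adjusted p = 0.0429) and differed by -0.46 ± 0.10 in HCT-116 and -0.21 ± 0.11 in KM12C, without overlap in all 3 lines. NDRG1, a stress-induced gene, MXI1, an antagonist of MYC, and ANKRD37 passed in no line.

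The calls in HCT-116 and KM12C were few and were lost when single arrays were left out. ALDOC and ENO2 in HCT-116 stayed below 0 without any 1 array (-1.66 to -1.37 and -0.76 to -0.66), but ALDOC passed only without elraglusib replicate 1 or DMSO replicate 1 and ENO2 in none of the 6 fits. Quantile scaling called 10 of the 39 genes in that line, all lower, and turned the 552 probe sets called higher and 227 called lower there into 730 and 711. In HT-29 BNIP3L, ALDOC, VEGFA, PDK3, P4HA2, PDK1 and EGLN1 passed in all 6 such fits, PFKL in 2, EGLN3 and HK1 in 1 and KDM3A in 0, and the count fell to 7 without elraglusib replicate 2, elraglusib replicate 3 or DMSO replicate 1. VEGFA in KM12C lost its call without DMSO replicate 1 (limma adjusted p = 0.056), and without DMSO replicate 3, the low PDK3 control, 6 genes passed there (1 higher and 5 lower), while the count over all 67528 probe sets in KM12C went to 7265.

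In NK-92 the greatest differences without overlap were small. P4HA1 read 10.29, 10.31 and 10.23 on DMSO and 10.19, 10.01 and 9.55 on elraglusib (-0.36 ± 0.17, SE), with replicate 3 far below the other treated arrays. MXI1 read 7.96, 7.74 and 7.76 against 7.68, 7.62 and 7.38 (-0.26 ± 0.12), and GPI 15.56, 15.52 and 15.53 against 15.42, 15.42 and 15.30 (-0.16 ± 0.10). The limma adjusted p was 1.00 for each.

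In TALL-104 the size of the differences followed the array labelled DMSO replicate 2. HK2 read 7.09, 9.83 and 6.70 on DMSO and 6.49, 6.09 and 6.66 on elraglusib, so that the difference was -1.46 ± 0.81 (SE) with that array and -0.48 ± 0.21 without it. PFKP read 9.70, 11.73 and 9.59 against 9.49, 9.01 and 9.57, which gave -0.98 ± 0.58 with and -0.29 ± 0.19 without. In both genes the array was the only control far from the treated arrays. ENO1 went from -0.52 ± 0.29 to -0.18 ± 0.12 (SE) in the same way. Without the array, ALDOC (7.68 and 7.62 against 7.45, 6.84 and 7.57) and EGLN3 (10.02 and 9.89 against 9.85, 9.51 and 9.44) were the next in size after HK2 among genes whose groups did not overlap, at -0.36 ± 0.23 and -0.35 ± 0.16 (SE). Neither passed (limma adjusted p = 0.924 and 0.918).

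Whether the lines differed in response was tested in a fit of all 30 arrays, in which VEGFA and PFKFB4 each differed in 2 of the 3 comparisons between colorectal lines. The response of VEGFA in HT-29 minus that in HCT-116 was -0.57 ± 0.16 (SE, limma adjusted p = 0.047), and that in KM12C minus that in HCT-116 was -0.86 ± 0.16 (SE, limma adjusted p = 0.00676). The second passed in 30 of 30 fits with 1 array left out and the first in 11. PFKFB4 responded less negatively in KM12C than in HCT-116 (0.61 ± 0.13, SE, limma adjusted p = 0.0242) and more negatively in HT-29 than in KM12C (-0.57 ± 0.13, limma adjusted p = 0.0218), in 22 and 24 of those fits. PFKL responded more negatively in HT-29 than in KM12C (-0.69 ± 0.17, limma adjusted p = 0.0285), in 24 of them. These were all the calls: 1 of 39 between HT-29 and HCT-116 (4.02% of all probe sets were called), 2 between KM12C and HCT-116 (0.748%) and 2 between HT-29 and KM12C (1.86%).

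The opposite signs of ALDOC and ENO2 did not pass in that fit but did without the array labelled TALL-104 DMSO replicate 2. The response of ALDOC in KM12C minus that in HCT-116 was 1.83 ± 0.57 (SE, limma adjusted p = 0.171) with all arrays and 1.83 ± 0.22 (limma adjusted p = 3.06e-05) without it. For ENO2 the same difference was 1.05 ± 0.55 (limma adjusted p = 0.542) and 1.05 ± 0.20 (limma adjusted p = 0.00416). The array is in neither contrast and enters only through the shared estimate of the spread. Without it the counts were 3 between HT-29 and HCT-116 (6.2% of all probe sets), 4 between KM12C and HCT-116 (1.9%) and 10 between HT-29 and KM12C (3.8%). The 10 were BNIP3L, EGLN3, HK1, PFKL, PFKFB4, ALDOC, PGK1, ENO2, P4HA2 and VHL, each with a more negative response in HT-29.

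The mean response of the colorectal lines was more negative than that of the cytotoxic lines at 8 of the 39 genes. Of all probe sets, 2.45% were called in either direction. The contrast was the mean response of the 3 colorectal lines minus the mean response of NK-92 and TALL-104. Its p-values rest on spread between arrays, as do those for DMSO levels below, so both speak of these 5 lines only. BNIP3L differed by -1.05 ± 0.18 (SE, limma adjusted p = 0.00134), PDK3 by -0.81 ± 0.14 (0.00179) and VEGFA by -0.74 ± 0.10 (0.000146). EGLN1 (-0.58), P4HA2 (-0.50), PDK1 (-0.45), KDM3A (-0.41) and PFKFB4 (-0.32) completed the list. For PFKFB4 and P4HA2 the response of KM12C was not below that of NK-92 (0.12 against 0.08, and -0.14 in both lines). The count was again 8, of the same genes, without the array labelled TALL-104 DMSO replicate 2 (3.22% of all probe sets), with BNIP3L at -0.86 ± 0.12 (SE), PDK3 at -0.81 ± 0.15 and VEGFA at -0.69 ± 0.10. The other 5 were then at -0.48 (EGLN1), -0.37 (P4HA2), -0.52 (PDK1), -0.35 (KDM3A) and -0.33 (PFKFB4). VEGFA, BNIP3L, PDK3, EGLN1 and PDK1 passed in all 30 fits with 1 array left out, KDM3A in 27, P4HA2 in 9 and PFKFB4 in 6, and the count was 5 without NK-92 elraglusib replicate 1. No gene was called in the other direction.

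**Figure D4:**
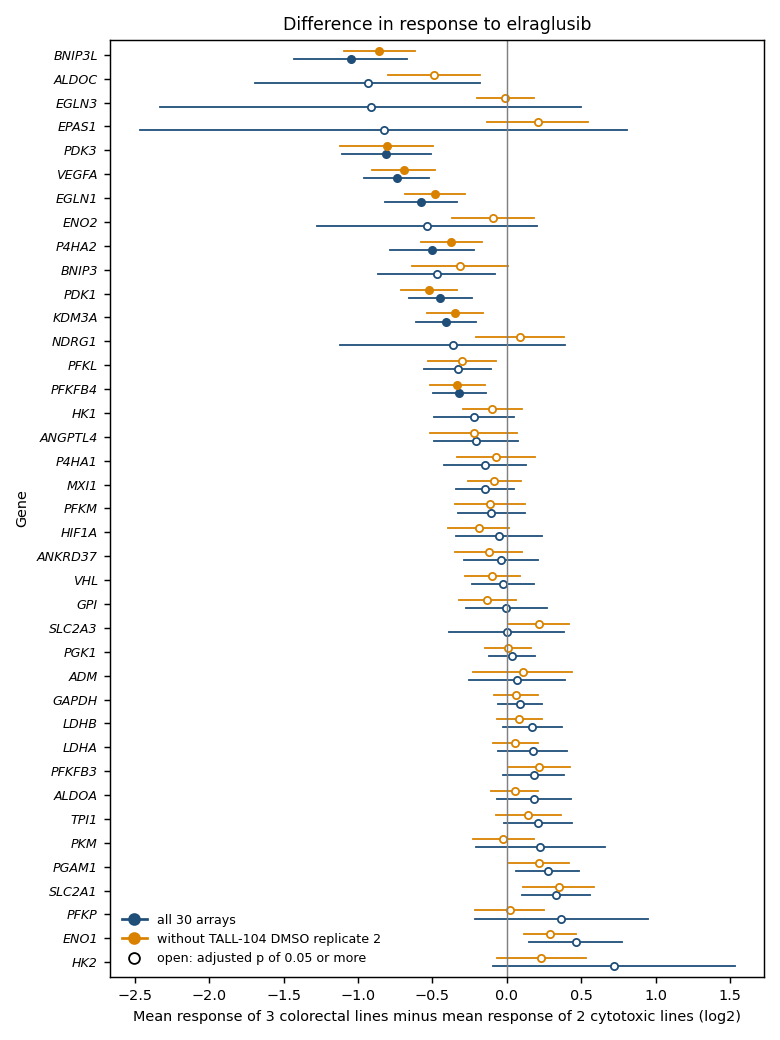
Mean response to elraglusib of 3 colorectal lines minus mean response of 2 cytotoxic lines (horizontal axis, log2) for 39 genes (vertical axis), with 95% confidence intervals, for all 30 arrays and without the array labelled TALL-104 DMSO replicate 2. Filled points passed an adjusted p of 0.05 by limma; the same 8 genes are filled in both fits, all left of 0, and the intervals of EGLN3, EPAS1, ENO2 and NDRG1 narrow without the array.

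On DMSO the levels of many of the genes differed between the lines. Between the mean of the colorectal lines and the mean of the cytotoxic lines 24 of the 39 genes passed (18 higher and 6 lower in the colorectal lines), where 34.6% of all probe sets did. Without the array labelled TALL-104 DMSO replicate 2 the count was 31 (40.1% of all probe sets). SLC2A3 (GLUT3) had the greatest difference. Its signal was 6.46 ± 0.18 (SD, n = 3) in HCT-116, 5.29 ± 0.09 in HT-29 and 4.98 ± 0.09 in KM12C, 11.96 ± 0.09 in NK-92, and 13.65, 12.30 and 13.55 on the TALL-104 arrays. No cytotoxic array came near a colorectal one, and the contrast was -6.99 ± 0.17 (SE, limma adjusted p = 2.91e-13). SLC2A1 (GLUT1) was 0.83 ± 0.08 (SE) higher in the mean of the colorectal lines, but not in each of them. HCT-116 read 12.71, 12.91 and 13.00, above NK-92 (12.59, 12.65 and 12.57) and below TALL-104 (13.22, 13.05 and 13.09). HT-29 (mean 14.67) and KM12C (mean 13.53) were above both. PFKM stood out as higher in the colorectal lines, at 9.55 to 10.75 on their DMSO arrays and 6.20 to 6.56 on the cytotoxic ones (3.96 ± 0.08, SE, limma adjusted p = 2.59e-14). VEGFA, P4HA1 and BNIP3L were also higher in the colorectal lines, by 1.74 ± 0.09, 1.78 ± 0.09 and 1.80 ± 0.17 (SE), and HK1, PFKFB3 and VHL were lower (-0.97, -0.73 and -0.67). Without the array labelled TALL-104 DMSO replicate 2 these differences kept their sign and passed, at -7.20 (SLC2A3), 0.81 (SLC2A1), 3.97 (PFKM), 1.69 (VEGFA), 1.71 (P4HA1), 1.61 (BNIP3L), -1.09 (HK1), -0.77 (PFKFB3) and -0.60 (VHL).

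HCT-116 carried the highest signal of several hypoxia-induced genes among the colorectal lines. BNIP3 read 9.96, 10.52 and 10.51 in HCT-116, 5.17, 5.30 and 5.08 in HT-29 and 4.44, 4.20 and 4.91 in KM12C. HCT-116 stood alone, and the differences were -5.15 ± 0.25 (HT-29 minus HCT-116, limma adjusted p = 3.95e-09) and -5.81 ± 0.25 (KM12C minus HCT-116, 1.08e-09). NDRG1, ALDOC, ADM and ANGPTL4 were also lower in HT-29 than in HCT-116 (-2.45, -2.13, -2.16 and -1.16) and lower in KM12C than in HCT-116 (-3.06, -2.72, -1.81 and -1.25), all past the test. In all, 16 of the 39 genes passed between HT-29 and HCT-116 (13 lower in HT-29, 13.9% of all probe sets passed) and 18 between KM12C and HCT-116 (13 lower in KM12C, 14.8%). The called genes that were higher than in HCT-116 were PGK1, PDK1 and SLC2A1 in HT-29, and VEGFA, PFKL, PDK3, SLC2A1 and P4HA1 in KM12C. HT-29 and KM12C differed at 14 genes (13.3%), with PDK3 the furthest at -2.73 ± 0.20 (HT-29 minus KM12C, SE) and SLC2A1 (1.14 ± 0.12) and EGLN1 (1.01 ± 0.14) higher in HT-29. Without the array labelled TALL-104 DMSO replicate 2, which is in none of these contrasts but in the shared spread, the counts were 24 (19.3% of all probe sets), 24 (20%) and 23 (18.4%).

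**Figure D5:**
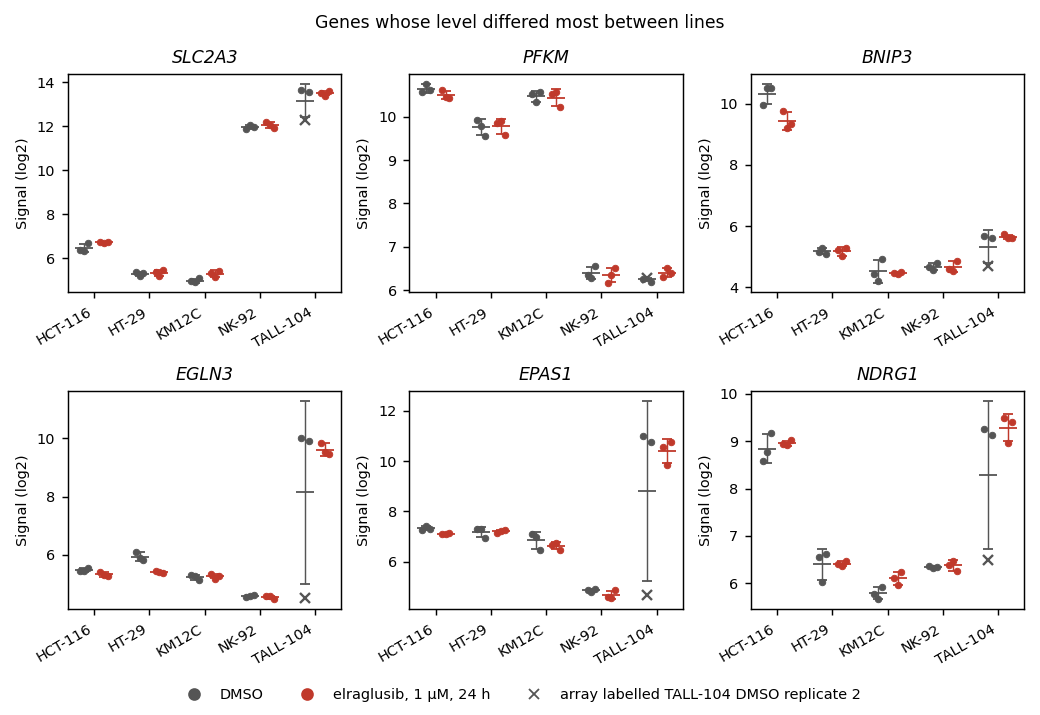
Log2 signal (vertical axis) of SLC2A3, PFKM, BNIP3, EGLN3, EPAS1 and NDRG1 in 5 cell lines (horizontal axis). Points are arrays, horizontal bars with whiskers the mean and SD of 3 arrays, and the cross marks the array labelled TALL-104 DMSO replicate 2. For EGLN3, EPAS1 and NDRG1 the other 5 TALL-104 arrays lie far above the NK-92 arrays, and the cross lies with NK-92.

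Between the cytotoxic lines the outcome depended on the array that went against its label. With it, 4 of the 39 genes passed (LDHB, SLC2A1, SLC2A3 and KDM3A, where 3.7% of all probe sets passed), and without it 27 did (20.1%), while leaving out any other DMSO array gave 0 to 2. EPAS1 read 4.89, 4.79 and 4.92 in NK-92 and 11.00 and 10.77 on the TALL-104 DMSO arrays other than replicate 2, which read 4.68. EGLN3 showed the same split, with 4.56, 4.60 and 4.62 against 10.02 and 9.89, and 4.53 on replicate 2. Without that array NK-92 minus TALL-104 was -6.02 ± 0.17 (SE) for EPAS1, -5.36 ± 0.12 for EGLN3, -2.85 ± 0.19 for NDRG1, -2.48 ± 0.15 for ALDOC and -2.45 ± 0.13 for ENO2. HK2 (3.02 ± 0.19, SE), PFKP (1.83 ± 0.12), PKM (1.44 ± 0.12), ENO1 (1.08 ± 0.11) and HIF1A (0.90 ± 0.11) were higher in NK-92.

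Genes of the same pathways outside the set were counted the same way. Of 28 other hypoxia-induced genes measured, 0 passed in HCT-116, 8 in HT-29 (2 higher, 6 lower) and 2 in KM12C (both lower), beside the shares of all probe sets given above (4.62% upward and 3.39% downward in HT-29, 0.603% and 0.894% in KM12C). DDIT4, an inhibitor of mTORC1, fell by 1.55 in HT-29 (SE 0.19, limma adjusted p = 0.00121) and by 1.31 in KM12C (SE 0.14, limma adjusted p = 0.00682), and the carbonic anhydrase CA12 by 1.18 (SE 0.17) and 1.17 (SE 0.15). RAB20, a small GTPase, fell by 2.26 in HT-29 (SE 0.18, limma adjusted p = 0.000158), and BHLHE41, a transcriptional repressor, by 0.98. Of 24 other genes of glycolysis, its entry and its exit, 1 passed in HCT-116 and 4 in HT-29. For this list and those below, the shares of all probe sets are the same, with 0.817% upward and 0.336% downward in HCT-116. TIGAR, a phosphatase that lowers fructose 2,6-bisphosphate and a known p53 target, rose by 1.75 in HCT-116 (SE 0.13, limma adjusted p = 0.00329) and by 0.63 in HT-29 (SE 0.14, limma adjusted p = 0.0299). PDK4, PGM1 and PDK2 fell in HT-29 by 1.29, 0.79 and 0.47, so that 4 PDK genes were lower there. Of 8 tricarboxylic acid cycle genes, IDH2, the mitochondrial isocitrate dehydrogenase, fell in HCT-116 (by 0.74) and HT-29 (by 1.69), and SDHA, a succinate dehydrogenase subunit, fell in HT-29 by 1.06. None of 5 pentose phosphate genes passed by limma, and none of these lists had a call in NK-92 or TALL-104. At an unadjusted p of 0.05, 1 pentose phosphate gene was higher and 1 lower in HT-29, 1 was higher in TALL-104, and 0 were past it in the other lines.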

How the data were processed

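RNA from 5 cell lines was hybridised to Human Transcriptome Array 2.0 arrays, 30 in all. RNA was extracted in batches of 6 and the arrays were run in 2 batches with randomised samples; which array was in which batch is not stated, so no batch term could be fitted. The deposited values are log2 signals per probe set, made by the authors with Transcriptome Analysis Console software, for which no version, background correction or normalisation is stated. Array medians lay between 4.23 and 4.6. Gene names came from the platform annotation, in which 23781 probe sets carry 1 symbol, 1543 several and 42204 none. Treatment was tested within each line, responses over all 30 arrays and levels over the 15 DMSO arrays, with lmFit and eBayes in limma 3.58.1 (R 4.3.3) and Benjamini-Hochberg adjustment over all 67528 probe sets. The test code was checked on simulated data. Any measured member could be named. Values per array are given for members called in a line (in HT-29 for the 8 with the smallest p) and, in a line with none, for the 3 with the greatest difference whose groups do not overlap. VEGFA, HIF1A, EPAS1, VHL, PDK1 and ENO2 are covered in every line, and companion genes are named up to 4 per list and line by smallest p. Values per array of other genes were chosen after they were seen. Alternatives changed the scaling, filter, moderation, replicate block, features, arrays and test. The members and lists were chosen with earlier results of these data known. The labels give 1 µM for every line, while the study's text speaks of half-maximal inhibitory concentrations.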

Additional observations from a re-analysis of the deposited data

Results flagged for a closer look

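Members whose response to elraglusib differed between lines, by the test of the difference itself in the fit of all 30 arrays with limma, are listed with their values. Between HT-29 and HCT-116 the response of VEGFA differed by -0.57 (adjusted p = 0.047), and between KM12C and HCT-116 by -0.86 (adjusted p = 0.00676). PFKFB4 differed by 0.61 between KM12C and HCT-116 (adjusted p = 0.0242) and by -0.57 between HT-29 and KM12C (adjusted p = 0.0218), and PFKL by -0.69 between HT-29 and KM12C (adjusted p = 0.0285). Between the mean of the colorectal and the mean of the cytotoxic lines the responses of BNIP3L (-1.05), PDK3 (-0.81), VEGFA (-0.74), EGLN1 (-0.58), P4HA2 (-0.50), PDK1 (-0.45), KDM3A (-0.41) and PFKFB4 (-0.32) differed. No test for a single outlying value was run within groups of 3 arrays.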

How the results depend on the processing

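In HCT-116, where the report gives 2 of the 39 genes past the threshold, the count was 10 with quantile scaling, 5 without the dimmest 40 percent of probe sets, 7 with trended and robust moderation, 14 with 1 probe set per gene, 4 with all 30 arrays in 1 fit, 6 at the study's thresholds (over 1.5-fold and an unadjusted p under 0.05), 12 by the methods' paired test unadjusted and 0 after Benjamini-Hochberg adjustment. In HT-29 (11) the paired test gave 20 unadjusted and 0 adjusted. In KM12C (1) the counts were 2 without dim probe sets, 7 with 1 probe set per gene, 3 with all arrays, 2 at the study's thresholds, and 12 and 0 by the paired test. In NK-92 (0) the unadjusted paired test gave 5. For the response of HT-29 minus that of HCT-116 (1), the count was 2 with quantile scaling, without dim probe sets or with 1 probe set per gene and 0 with trended moderation, and for HT-29 minus KM12C (2) it was 7 with quantile scaling. For NK-92 minus TALL-104 on DMSO (4) it was 12 without dim probe sets, 14 with 1 probe set per gene and 1 with trended moderation. The causes were not tested, beyond the fewer features tested in 2 of these settings.

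With the replicate block the count was 0 in HCT-116, 0 for HT-29 minus HCT-116 and 8 for NK-92 minus TALL-104 on DMSO. Same-numbered arrays did not deviate together (correlation -0.34 to 0.15, over 0.1 in 3 of 15 pairs, and 4 of the 15 treated arrays correlated best with their own number), so the numbers are not taken as pairs. With 1 array left out the counts ran from 0 to 2 in HCT-116, 7 to 10 in HT-29 and 0 to 6 in KM12C. They ran from 0 to 3 for the response of HT-29 minus HCT-116, 1 to 4 for KM12C minus HCT-116, 0 to 10 for HT-29 minus KM12C and 5 to 9 for colorectal minus cytotoxic lines. On DMSO they ran from 11 to 23 for HT-29 minus KM12C and 0 to 27 for NK-92 minus TALL-104. Without any 1 array the difference of HIF1A in HCT-116 ran from -0.0617 to 0.0383, that of VHL in NK-92 from -0.045 to 0.125, and those of EPAS1 and ENO2 in TALL-104 from -0.49 to 2.67 and -0.16 to 1.23. EPAS1 in HT-29 ran from -0.0967 to 0.0883 and was -0.00889 with quantile scaling. A second probe set could not be tried, since each measured gene had 1. The number of arrays per group (3) limits the precision of every value.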
